A study of Homo sapiens with 18 samples.

Results

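Chromatin accessibility after 6 h of 10 nM R5020 was compared with that after 6 h of vehicle in T47D cells, over all 132304 regions that could be tested. The comparison used 6 of the 18 libraries of the series, chosen by their column names: 3 from cells given 10 nM R5020 and 3 from cells given the vehicle, DMSO. T47D is an established human breast carcinoma line of luminal type that carries the progesterone receptor, and R5020 (promegestone) is a synthetic progestin. All cells, vehicle cells included, were first held in medium with little charcoal-stripped serum to bring them to the same point of the cell cycle, so both groups share that starvation. The other 12 libraries, from 0.1 nM R5020 at 6 h and from 0.1 nM, 10 nM and vehicle at 18 h, entered the same fit and serve here as independent libraries or as values set side by side. The results describe 1 cell line. Since no label states that replicate libraries were grown apart, p-values here reflect library-to-library variation, part of which may be technical.

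The progesterone receptor is a transcription factor that the hormone activates. It binds DNA at palindromic hormone response elements, which it shares with the glucocorticoid and androgen receptors, and it often does so far from gene starts, at enhancers that the pioneer factor FOXA1 and the luminal factor GATA3 help to keep open. Omni-ATAC-seq reads out open DNA: the Tn5 transposase cuts where nucleosomes and other proteins leave DNA exposed, and the reads of a region follow how open it is. In luminal breast cells progestins are known to raise FKBP5 and ZBTB16, to act on cyclin genes and cell-cycle inhibitors, and to redirect the estrogen receptor.

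The 10 nM libraries held 21015917, 22215728 and 33726875 counts in regions, and the vehicle libraries held 11468476, 29348455 and 11849062. The 5000 strongest regions took 34.5, 34.2 and 33.5% of the counts with 10 nM and 41.7, 38.7 and 37.1% with vehicle, so the shares did not overlap. Vehicle replicates 1 and 3 lay farther from the other libraries of their group (root mean square deviation of 0.835 and 0.807 in log2 CPM) than the 10 nM libraries did (0.427 to 0.432). Start regions were found for 9 of 9 luminal marker genes, at 5.03 to 85.7 CPM in 10 nM cells and 13.4 to 134 CPM in vehicle cells. They were found for 3 of 8 markers of other cell types (CDH2, ZEB1 and ACTA2), at 11.3 to 15.3 CPM in 10 nM cells and 13.6 to 19.1 CPM in vehicle cells; the basal genes KRT5, KRT14 and TP63, VIM and the leukocyte gene PTPRC had no region within 1 kb of the start used.

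Cells given 10 nM for 6 h gained accessibility at about 2 regions for every region that lost it. A region is called here at a Benjamini-Hochberg adjusted p under 0.05 in edgeR's quasi-likelihood test over all tested regions. In bulk libraries, more cells with a region open and a region more open in each cell cannot be told apart. By this rule 25.1% of regions were called, 16.7% (22119) higher and 8.42% (11143) lower with 10 nM. Gains were larger than losses: the median log2 fold change was 1.93 among gains (interquartile range 1.44 to 2.51) and -1.13 among losses (interquartile range -1.57 to -0.84), and 10249 gains against 1307 losses were at least 4-fold. Called gains were weak regions in vehicle cells, with a median of 3.87 CPM (counts scaled to library size) under 10 nM and 0.959 CPM under vehicle. Called losses were stronger in vehicle cells, with a median of 2.56 CPM under 10 nM and 5.91 CPM under vehicle. These medians describe regions chosen for their difference and carry no test. The count of losses moved with the libraries used: it was 6547, 7107 and 7011 without 10 nM replicate 1, 2 and 3, 6477 and 7318 without vehicle replicate 1 and 2, and 12289 without vehicle replicate 3.

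Calls made at 18 h, from 6 other libraries, give a choice of regions whose contrast the 6 h libraries did not enter, although all 18 shared 1 estimate of the spread. At the 16989 regions called higher at 18 h, the median log2 ratio to the 6 h vehicle mean was 1.83, 1.78 and 1.91 in the 10 nM libraries of 6 h and -0.17, -0.03 and 0.26 in the vehicle libraries of 6 h. At the 10002 regions called lower at 18 h it was -0.94, -0.90 and -0.93 in the 10 nM libraries and 0.18, 0.04 and -0.21 in the vehicle libraries. Every 10 nM library thus lay on the side of the 18 h call, outside the range of the vehicle libraries. Of the 6 h gains 60.8% were also called higher at 18 h, where 12.8% of all regions were, and of the 6 h losses 58.3% were also called lower, where 7.56% were. The interaction of time with 10 nM passed the threshold at 2 regions, or 0.00151%, so for nearly all regions the data do not show that the response differed between 6 h and 18 h; among the 205 regions considered by name, the smallest adjusted p of the interaction was 0.252.

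The 8 strongest gained regions were modest in vehicle cells and among the highest named here in 10 nM cells. On chromosome 8, chr8:101429137-101430041 (hg19) held 109, 114 and 115 CPM in 10 nM cells and 24.1, 25.97 and 23.2 CPM in vehicle cells (log2 fold change 2.21, SE 0.21, edgeR adjusted p = 2.41e-07). Each group was tight, and a lack of overlap between them was required of all 8. On chromosome 20, chr20:58401286-58402112 held 108, 97.1 and 114 CPM in 10 nM cells and 5.46, 7.59 and 11.6 CPM in vehicle cells (log2 fold change 3.69, SE 0.27, adjusted p = 2.40e-08). This region was also called higher with 0.1 nM at 6 h, as 0.949% of all regions were, at a mean of 45.1 CPM against the same vehicle libraries (log2 fold change 2.45, adjusted p = 1.54e-05), whereas the chromosome 8 region held 24.7 CPM with 0.1 nM (log2 fold change 0.02). On chromosome 12, chr12:58274938-58275652 held 80.4, 87.2 and 85.5 CPM in 10 nM cells and 5.04, 5.19 and 4.45 CPM in vehicle cells. Its 17.2-fold difference was the largest of the 8 strongest gains, with a mean of 6.38 CPM under 0.1 nM.

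The other strong gains were chr20:30251755-30252921 (8.59-fold higher), chr3:150187280-150188568 (5.03-fold), chr1:145281171-145282091 (10.4-fold), chr5:133846899-133848204 (5.59-fold) and chr14:30919760-30920596 (6.21-fold). Their means were 83.0 to 100.1 CPM in 10 nM cells and 8.20 to 17.7 CPM in vehicle cells. All 8 were also higher at 18 h, with log2 fold changes of 1.66 to 3.76. The chromosome 1 region lies in 1q21, a band rich in segmental duplications, and how reads with several matches were placed is not given in the sources used here. These 8 were taken by level among non-overlapping gains of at least 4-fold; 44.7% of all regions had groups that did not overlap, 24.3% with the 10 nM libraries above and 20.4% below.

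Among the 8 strongest lost regions the highest in vehicle cells was chr11:34653105-34654598, inside the span of EHF, which encodes an epithelial ETS factor. It held 21.6, 23.2 and 24.9 CPM in 10 nM cells and 142, 99.3 and 82.5 CPM in vehicle cells (log2 fold change -2.21, SE 0.21, adjusted p = 3.11e-07). The 10 nM libraries agreed closely, while the vehicle libraries were spread widely, with replicate 1 highest. At chr1:117420724-117422731 the values were 10.2, 10.2 and 11.2 CPM in 10 nM cells and 80.1, 64.0 and 61.1 CPM in vehicle cells, which is 6.50-fold lower with 10 nM, the largest of the 8 strongest losses. At chr17:38774834-38776578 they were 13.7, 15.98 and 17.1 CPM in 10 nM cells and 104, 64.6 and 62.1 CPM in vehicle cells. Vehicle replicate 1 was the highest vehicle library in each of the 8. That the groups stayed apart in each follows from the choice, since the 8 were taken among losses whose groups did not overlap.

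The others were chr8:116999941-117000803 (4.32-fold lower), chr21:41757453-41759550 (4.36-fold), chr21:30750877-30752061 (5.27-fold), chr2:190405860-190407104 (4.04-fold) and chr2:190351762-190352911 (5.09-fold). The last pair are near neighbours on chromosome 2. At 18 h all 8 losses were called lower, with log2 fold changes between -1.995 and -1.424. With 0.1 nM at 6 h, where 0.241% of all regions were called lower, none of the 8 was called, and their means were 25.6 to 76.3 CPM.

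**Figure D1:**
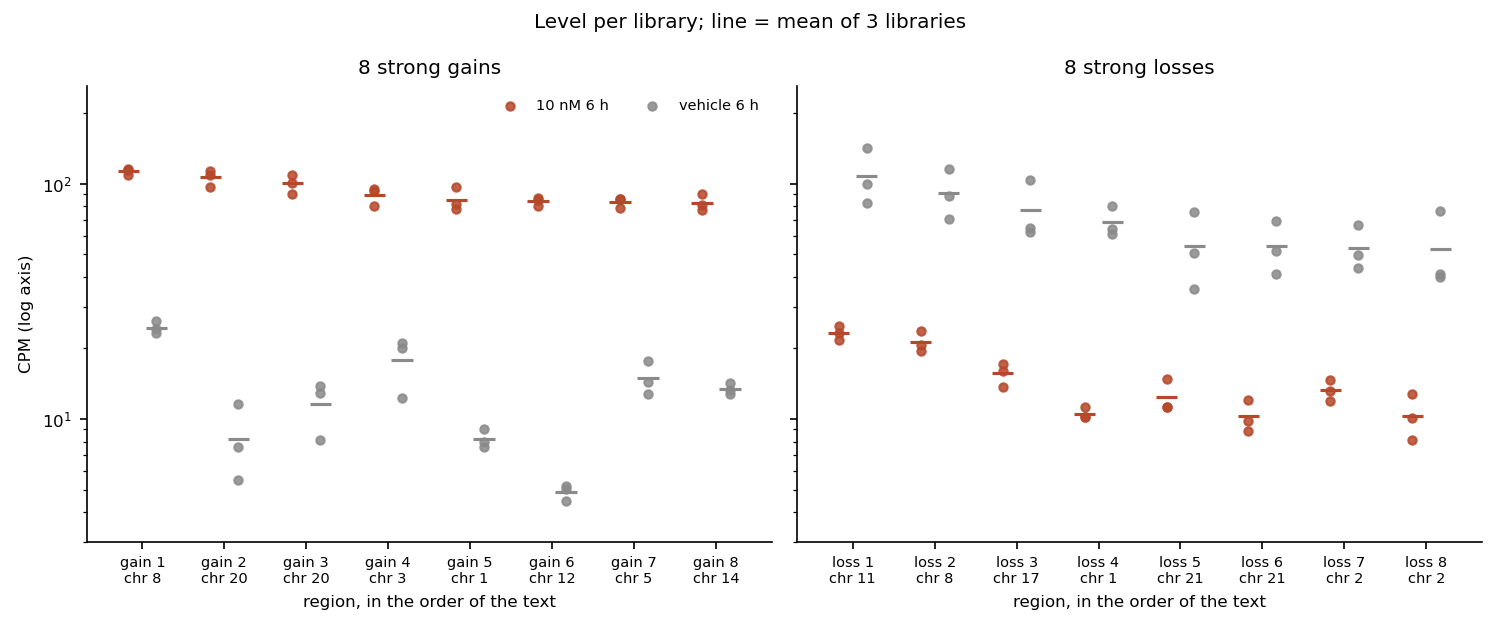
CPM in each of the 3 libraries with 10 nM and the 3 with vehicle at 6 h (points, log axis; lines are means) for the 8 strongest gains and the 8 strongest losses of at least 4-fold. In the gains the 10 nM libraries sit between 77.5 and 115 CPM and in the losses between 8.10 and 24.9 CPM. Regions were taken only where the groups did not overlap.

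Level, width and neighbourhood separated gains from losses. From the weakest to the strongest quintile of regions by mean log2 CPM over all 18 libraries, the share called higher was 19.97, 19.96, 18.6, 16.5 and 8.57%, and the share called lower was 2.60, 5.32, 8.57, 13.7 and 11.9%. Gains thus outnumbered losses in the lower 4 quintiles, and losses outnumbered gains in the strongest. When regions were sorted instead by their level in the 18 h vehicle libraries, which are not in the comparison, the share higher from weakest to strongest was 30.9, 20.6, 15.5, 11.7 and 4.91%, and the share lower was 0.658, 3.42, 7.70, 15.2 and 15.1%. By that order losses outnumbered gains in the upper 2 quintiles. By this measure 42.8% of gains lay under 1 CPM, where 24.3% of all regions did, and 26.5% of losses lay over 10 CPM, where 16.03% of all regions did. The test has less power at low counts, and weak regions had the fewest losses. All libraries share 1 set of regions, so a region weak in vehicle cells may be in the set through other libraries. Such a region also has little room to fall. How far this sets the shares by level was not tested.

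Narrow and wide regions also behaved differently. From the narrowest to the widest quintile the share higher was 12.6, 18.3, 22.1, 20.5 and 10.2%, with its peak at widths of 320 to 472 bp, and the share lower climbed through 2.03, 4.37, 7.57 and 13.2 to 14.9%. The median width was 389 bp for gains and 601 bp for losses, beside 387 bp for all regions. To separate width from level, regions of like level were also compared. Within the middle quintile of level, the narrowest of 3 equal width classes had 12.3% higher and 4.15% lower, and the widest had 23.8% higher and 14.1% lower. Within the strongest quintile the order of gains was the other way: 13.1% of the narrowest class and 4.04% of the widest were higher. The share of gains also grew with the number of other regions within 50 kb, from 12.9% for regions with none through 14.8, 15.97 and 16.8 to 19.2% for those with over 10, while losses ran through 9.03, 9.45, 8.85, 8.06 and 7.90%. Among chromosomes the share higher was lowest on 19 (10.8%), whose regions had the greatest median width (500 bp), and highest on 13 and 2 (20.7% each).

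**Figure D2:**
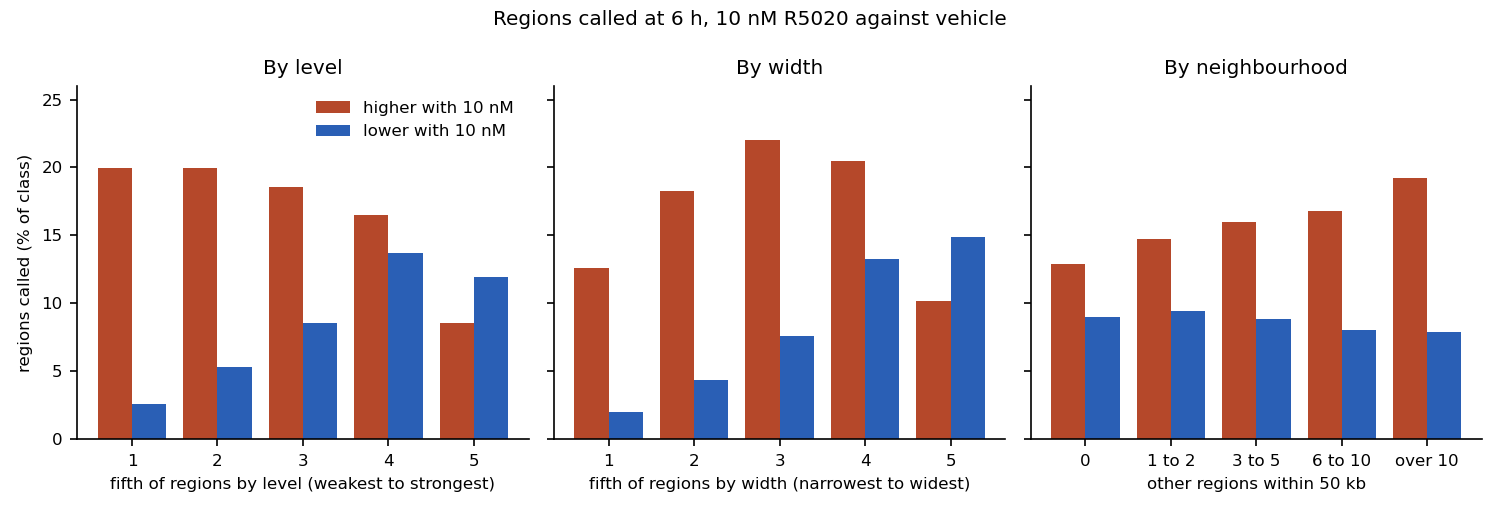
Percent of regions called higher or lower with 10 nM than with vehicle at 6 h, by quintile of level, quintile of width and number of other regions within 50 kb. Among the classes drawn, losses pass gains in the strongest quintile by mean over all libraries (11.9% lower, 8.57% higher) and in the widest quintile (14.9% lower, 10.2% higher).

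Called regions lay near others that moved the same way. For 26.4% of gains the nearest region was also a gain, where 16.7% of all regions were gains, and for 6.70% it was a loss. For 19.8% of losses the nearest region was also a loss, where 8.42% of all regions were losses, and for 13.8% it was a gain. The likeness faded with distance: it held for 32.3% of gains and 28.8% of losses when the nearest region was under 1 kb away, for 27.9 and 19.8% at 1 to 10 kb, for 19.6 and 16.3% at 10 to 50 kb, and for 16.8 and 15.3% beyond. Neighbours share their place in the genome and are no replicates, so these shares carry no test.

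**Figure D3:**
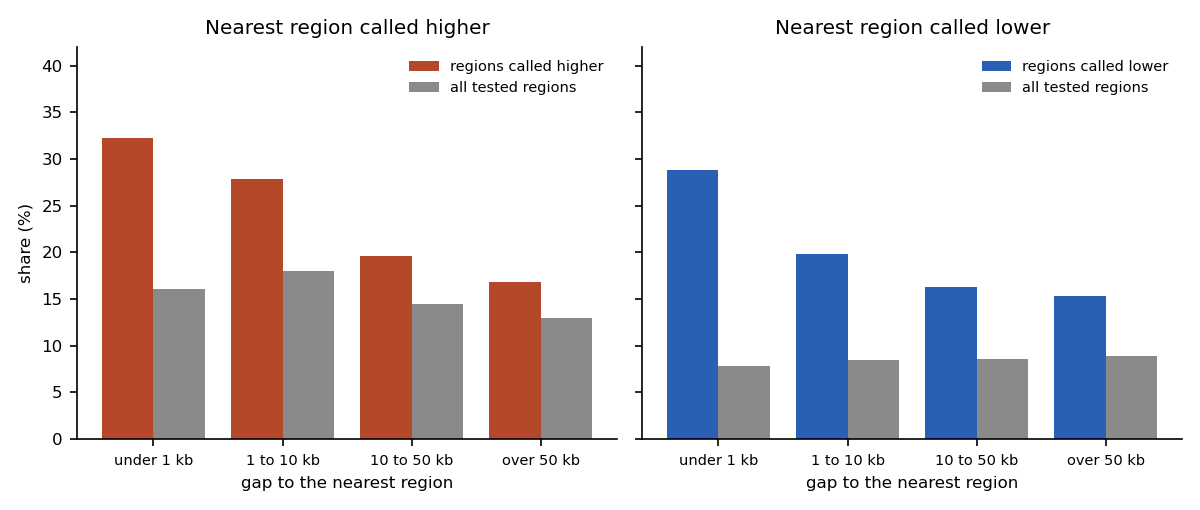
Share of called gains (left) and losses (right) whose nearest region was called in the same direction, by gap. Beside it is the share of all tested regions with such a gap that were themselves called in that direction. Under 1 kb the shares were 32.3% and 28.8%, against 16.03% and 7.81% for all regions with such a gap.

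Calls were also read as runs of consecutive regions called in 1 direction. At least 3 regions were held by 1008 of 16793 runs of gains and by 324 of 9174 runs of losses. A run has 1 direction by definition, and the length to be expected was not computed. The longest run of gains had 11 regions, chr15:22449484-22491493, with log2 fold changes of 0.66 to 3.10; this part of 15q11 also holds segmental duplications. The longest run of losses had 9 regions over 94.2 kb, chr9:13045894-13140110, with log2 fold changes of -2.84 to -0.79. It lies beside the fixed 1 Mb bin at 12 to 13 Mb of chromosome 9, in which 25 of 49 regions (51.0%) were lower, the highest count of losses together with the bin at 12 to 13 Mb of chromosome 6 (25 of 86). In the chromosome 9 bin the called loss shown is chr9:12904168-12905533, with 1.73, 2.27 and 3.07 CPM under 10 nM and 45.7, 31.9 and 31.0 CPM under vehicle. That is 15.1-fold lower with 10 nM, and no vehicle library came near the 10 nM libraries.

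Among the 2882 bins of 1 Mb that held a tested region, the most gains fell at 134 to 135 Mb of chromosome 8, with 43 of 133 regions, a bin that includes the window of NDRG1, a stress and differentiation gene. The next were 50 to 51 Mb of chromosome 14 (35 of 95), 85 to 86 Mb of chromosome 16 (35 of 149), 102 to 103 Mb of chromosome 8 (35 of 124), which holds the epithelial factor GRHL2, and 148 to 149 Mb of chromosome 5 (34 of 127). In the chromosome 14 bin, chr14:50124764-50125779 held 31.1, 27.4 and 32.5 CPM in 10 nM cells and 0.315, 0.995 and 2.75 CPM in vehicle cells. It was nearly closed in all vehicle libraries and open in all 10 nM libraries. The other bins with the most losses were 52 to 53 Mb of chromosome 20 (22 of 93), 34 to 35 Mb of chromosome 11 (21 of 106), which holds EHF and ELF5, and 68 to 69 Mb of chromosome 14 (21 of 84).

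Known loci were read through windows of the gene span with 50 kb on each side. The hg19 spans were entered from general knowledge, since no hg19 annotation was used here; all 99 lay on the chromosome that RefSeq gives, 75 had a length within 1 kb of the RefSeq span, and 90 had a region within 1 kb of the start. A region inside a window may belong to another gene, and exons and introns were not assigned. Around 34 progestin and glucocorticoid genes, 126 of 537 regions (23.5%) were higher with 10 nM and 37 (6.89%) lower, beside 16.7% and 8.42% of all regions. Around 26 luminal genes the balance was the other way, with 65 of 427 (15.2%) higher and 104 (24.4%) lower. Around 23 cell-cycle genes 33 of 215 (15.3%) were higher and 12 (5.58%) lower, near or below the shares of all regions. Around 8 housekeeping genes 10 of 68 (14.7%) were higher and 7 (10.3%) lower.

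The median log2 fold change was 0.07 over the progestin windows, -0.31 over the luminal windows, -0.17 over the cell-cycle windows, -0.38 over the windows of 8 genes of other cell types and -0.12 over the housekeeping windows, beside -0.05 over all regions. The progestin median was -0.004 with upper-quartile factors, the housekeeping median was 0.05 with a level-dependent offset and 0.009 with total counts alone, the cell-cycle median was -0.03 with the level-dependent offset (0.02 above that of all regions), and the luminal median stayed between -0.40 and -0.17 under every scaling tried. Strong regions were called lower more often over the whole table too, so the luminal regions were also read by level. Within the strongest quintile of level 34.8% of luminal regions were lower, against 11.9% of all, and in the next quintile 28.1% were, against 13.7% of all. The windows of other cell types had a like share of losses, 19 of 81 (23.5%), beside 12 gains (14.8%). In the strongest quintile 23.5% of their regions were lower (4 of 17), and in the next 43.8% (7 of 16), above the luminal share there. Leaving out any 10 nM library or vehicle replicate 1 or 2 brought the luminal share lower to between 13.6 and 16.4%, with 13.6% without vehicle replicate 1. Under the same omissions the losses over all regions fell as well, from 11143 to between 6477 and 7318. Without vehicle replicate 1 they were 6477 of 132500 tested regions.

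**Figure D4:**
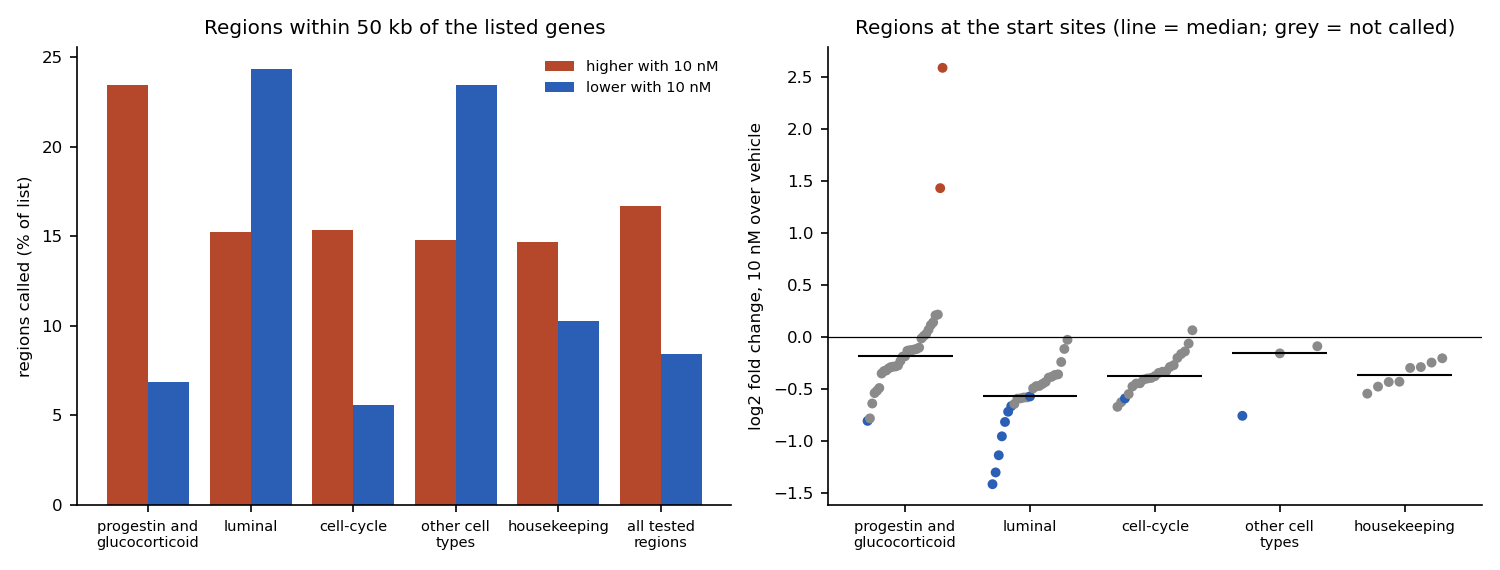
Left, percent of regions called higher or lower with 10 nM than with vehicle within 50 kb of the listed genes, beside all tested regions. Right, log2 fold change (10 nM over vehicle) of the region at each gene's start site, with the median as a line; red points are called higher, blue lower and grey not called.

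Among the progestin targets, FKBP5, a co-chaperone that damps steroid receptors and is a standard readout of their activity, had the plainest response. Of 22 regions in its window 12 were higher and 2 lower. The region at its start, ending just inside the gene, chr6:35693527-35696254, held 122, 122 and 154 CPM in 10 nM cells and 50.9, 48.7 and 47.8 CPM in vehicle cells (log2 fold change 1.43, SE 0.22, adjusted p = 4.90e-05). It was open in all libraries and more open with the progestin. The region chr6:35607820-35608305, inside the gene 88.3 kb from the start, held 24.2, 20.7 and 24.3 CPM in 10 nM cells and 0.945, 1.11 and 0.891 CPM in vehicle cells (22.9-fold, adjusted p = 6.38e-08). With 0.1 nM the start region was already at 150 CPM (log2 fold change 1.61, adjusted p = 0.000271), while the internal region held 2.55 CPM (log2 fold change 1.38, adjusted p = 0.0863). Both losses of the window lay upstream of the start, at 26.3 and 36.0 kb.

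GREB1, a growth regulator and coactivator of the estrogen receptor that progestins also act on, had the most gains of any listed locus, 25 of 43 regions with 1 loss. They ran from 49.3 kb before the start to 118.4 kb past it. The largest by fold change, chr2:11664412-11664932, 9.6 kb upstream, held 8.62, 10.1 and 9.02 CPM in 10 nM cells and 0.840, 0.921 and 0.405 CPM in vehicle cells (12.3-fold, adjusted p = 6.33e-08). The strongest called region within the gene, 5.9 kb past the start, moved less, with 31.9 ± 1.78 CPM in 10 nM cells and 16.7 ± 2.77 CPM in vehicle cells (SD, n = 3 each). No region lay within 1 kb of the start used for GREB1.

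ZBTB16, a zinc-finger repressor induced by progestins in many tissues, had 8 gains and 2 losses among 28 regions, with 6 of the gains between 90.5 and 119.8 kb past its start. There chr11:114049528-114050627 held 27.5, 28.1 and 28.0 CPM in 10 nM cells and 2.00, 2.39 and 6.48 CPM in vehicle cells (7.76-fold, adjusted p = 1.14e-06). At 0.1 nM this region held 40.0 CPM (log2 fold change 3.48 against the same vehicle libraries). The start region was not called, with 3.32 ± 0.802 CPM in 10 nM cells and 4.27 ± 0.639 CPM in vehicle cells.

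TNFSF11 encodes RANKL, the paracrine signal by which progesterone drives growth of neighbouring mammary cells. Its start region was nearly closed, at 0.796, 1.25 and 1.58 CPM in 10 nM cells and 0, 0.221 and 0.324 CPM in vehicle cells (log2 fold change 2.59, SE 0.61, adjusted p = 0.00338). A region 9.2 kb upstream, chr13:43127250-43128121, held 10.0, 8.19 and 11.1 CPM in 10 nM cells and 0.945, 0.958 and 1.86 CPM in vehicle cells (7.91-fold). FKBP5 and TNFSF11 were the 2 of 33 progestin genes with a start region called higher. With a mean of at least 1 CPM required of each region, 1 progestin start was called higher. The start of ELF5, an ETS factor of the secretory lineage, was the 1 called lower, at 29.6 ± 0.996 CPM in 10 nM cells and 51.8 ± 10.7 CPM in vehicle cells (log2 fold change -0.80, adjusted p = 0.00254). At 18 h neither the TNFSF11 start (log2 fold change 1.45, edgeR adjusted p = 0.0564) nor the ELF5 start (-0.40, adjusted p = 0.131) was called. The FKBP5 start was called higher then (1.35, adjusted p = 0.000118).

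Several targets shared with the glucocorticoid receptor gained distal regions while their starts were not called. For DUSP1, a phosphatase that turns off MAP kinases, chr5:172202573-172202845 lay 4.5 kb upstream and held 14.7 ± 2.47 CPM in 10 nM cells and 1.75 ± 0.518 CPM in vehicle cells. For PDK4, which blocks pyruvate oxidation, chr7:95179170-95180090 held 34.3 ± 3.01 CPM in 10 nM cells and 5.67 ± 1.06 CPM in vehicle cells, and 24.1 CPM with 0.1 nM. For NFKBIA, the inhibitor of NF-kB, chr14:35843520-35844035 held 30.0 ± 3.09 CPM in 10 nM cells and 3.73 ± 0.143 CPM in vehicle cells. These regions were 6.05- to 8.13-fold higher. The largest changes near MT2A (a metallothionein, 7.47-fold), HSD11B2 (which inactivates cortisol, 6.79-fold), SCNN1A (an epithelial sodium channel subunit, 8.92-fold), FOSL2 (an AP-1 subunit, 6.33-fold) and NDRG1 (6.30-fold) were gains as well. Single regions do not speak for their windows. DUSP1 had 1 gain and 1 loss among 10 regions, MT2A 1 gain among 10 and FOSL2 1 gain among 14, beside 16.7% of all regions higher. PDK4 had 3 gains among 6 regions and HSD11B2 4 among 14. NFKBIA had 5 gains and 2 losses among 20, SCNN1A 3 and 1 among 16, and NDRG1 7 and 2 among 19. The largest change was a loss near TIPARP (log2 fold change -1.99), SCNN1G (-1.46) and CEBPB (-1.09). At least 1 gain was held by 33 of the 34 windows, as by 22 of 26 luminal, 7 of 8 other cell type and 6 of 8 housekeeping windows, and 18 held at least 1 loss; CDKN1C had neither among 11 regions. Of the 126 gains of this list, 87 were also called higher at 18 h, as were 60.8% of all 6 h gains.

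**Figure D5:**
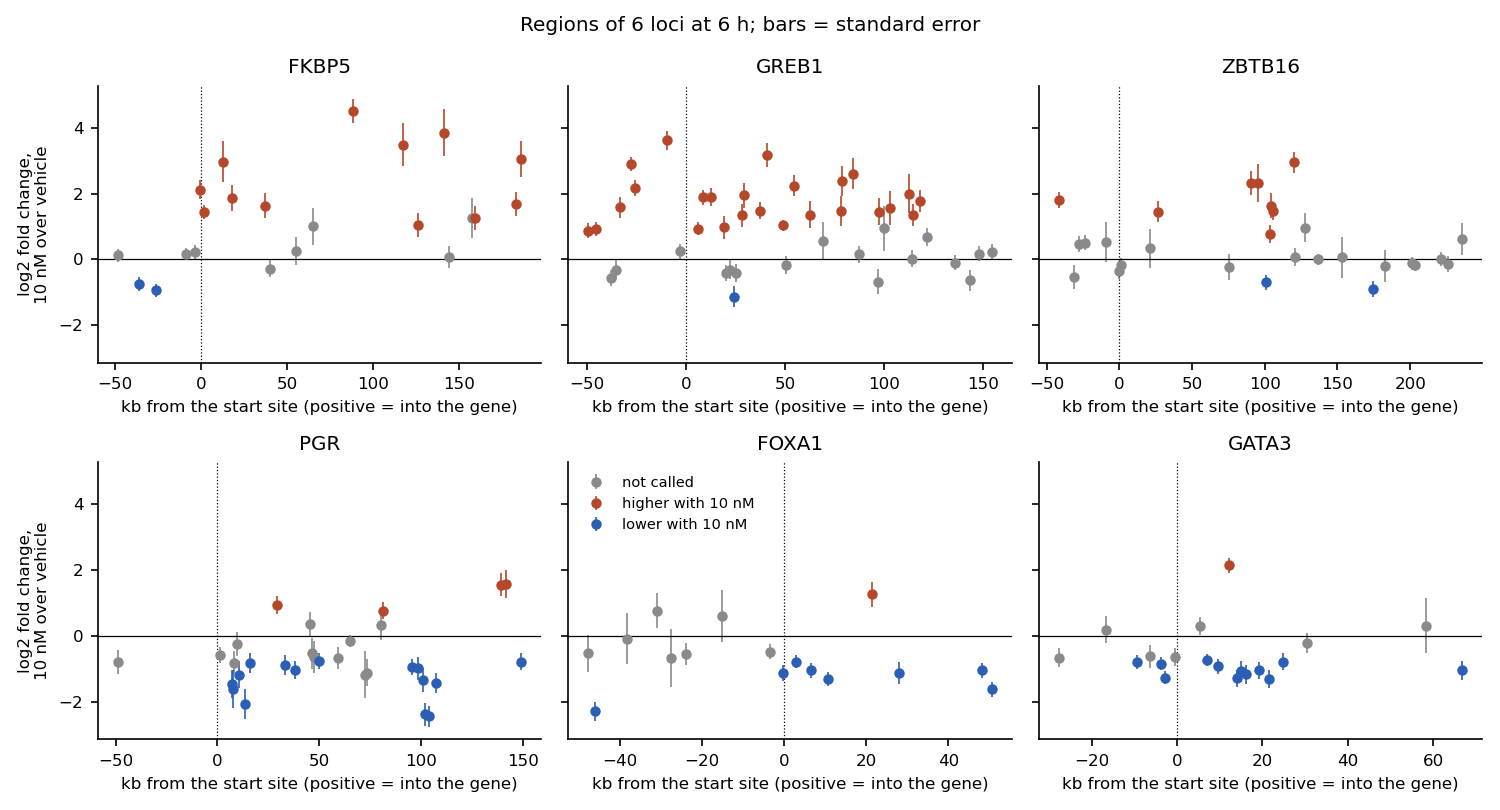
Log2 fold change (10 nM over vehicle, 6 h) with standard error for each region in the windows of 6 genes, by distance from the start site in kb. FKBP5 and GREB1 show 12 and 25 gains, whereas FOXA1 and GATA3 show 8 and 12 losses with 1 gain each.

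Among the luminal genes, the receptor and pioneer factor loci lost accessibility over many regions. FOXA1 opens chromatin for the estrogen and progesterone receptors. Its start region, chr14:38063439-38065545, held 48.8, 55.5 and 45.6 CPM in 10 nM cells and 134, 107 and 87.8 CPM in vehicle cells (log2 fold change -1.13, SE 0.25, adjusted p = 0.00207). The groups were well apart, with all 10 nM libraries at about the same level. Of 16 regions 8 were lower and 1 higher, a gain not called without 10 nM replicate 1, 10 nM replicate 2 or vehicle replicate 2, and chr14:38110127-38110786, 46.1 kb upstream, was 4.92-fold lower, at 1.23 ± 0.291 CPM in 10 nM cells and 6.21 ± 1.21 CPM in vehicle cells.

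GATA3, a factor that luminal cells need to keep their identity, had 12 losses and 1 gain among 20 regions, 6 of the losses in a run at and past its end, chr10:8110221-8121746. The single gain, chr10:8108640-8109181, lay between losses within the gene and held 16.9, 21.4 and 16.2 CPM in 10 nM cells and 4.83, 3.46 and 4.13 CPM in vehicle cells (4.44-fold, adjusted p = 1.13e-06). It was the largest change of the locus and went against its neighbours. The GATA3 start region was not called, at 85.7 ± 2.65 CPM in 10 nM cells and 134 ± 26.4 CPM in vehicle cells (log2 fold change -0.64, adjusted p = 0.0881), although the groups did not overlap; with the level-dependent offset its value was -0.26 and passed the test.

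PGR, the gene of the receptor that R5020 binds, had 15 losses and 4 gains among 31 regions, 6 of the losses in a run at and beyond its 3′ end, chr11:100893125-100905380. The largest, chr11:100896049-100896786, held 0.843, 1.43 and 1.20 CPM in 10 nM cells and 8.40, 5.78 and 5.02 CPM in vehicle cells (5.46-fold lower, adjusted p = 6.74e-06). The start region held 84.2 ± 1.71 CPM in 10 nM cells and 126 ± 28.2 CPM in vehicle cells and was not called (log2 fold change -0.58, adjusted p = 0.0765), although the groups did not overlap. It was called lower at 18 h (log2 fold change -0.89, adjusted p = 0.00923), and at 6 h with the replicate block, without vehicle replicate 3, with total counts, with the 6 compared libraries alone and with upper-quartile factors (adjusted p of 0.0180 to 0.0365 in edgeR). Leaving out any library other than vehicle replicate 3 brought the number of losses to between 5 and 7, with 5 without vehicle replicate 1.

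ESR1, which encodes the estrogen receptor, had change in both directions, with 7 gains and 10 losses among 34 regions. Its start region held 4.36, 5.52 and 5.21 CPM in 10 nM cells and 15.6, 15.6 and 8.99 CPM in vehicle cells (log2 fold change -1.41, SE 0.23, adjusted p = 0.000118). Within the gene, chr6:152410859-152411421 held 17.6, 19.9 and 18.7 CPM in 10 nM cells and 1.26, 0.921 and 1.21 CPM in vehicle cells (log2 fold change 4.09, SE 0.31, adjusted p = 3.33e-08). Of the 10 losses 8 lay between 42.1 kb before and 117.9 kb past the start, and the 4 gains with a log2 fold change over 2 lay 226.6 to 399.5 kb past it. The number of losses was 5 without 10 nM replicate 1, 10 nM replicate 3 or vehicle replicate 2, and 6 without vehicle replicate 1. With 0.1 nM the region of the largest gain held 1.06 CPM.

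EHF lost its start region (11.3 ± 0.852 CPM in 10 nM cells and 21.8 ± 5.00 CPM in vehicle cells) together with the internal region described among the strongest losses, 7 of 15 regions in all. Start regions were also lower at AGR2, a secretory-pathway isomerase (7.35 ± 1.35 CPM in 10 nM cells and 18.1 ± 3.99 CPM in vehicle cells), at TFF3, a secreted trefoil peptide (12.7 ± 2.67 CPM in 10 nM cells and 22.3 ± 2.00 CPM in vehicle cells), and at ERBB2 (log2 fold change -0.66, adjusted p = 0.0103). The ERBB2 call was lost without 10 nM replicate 1 or 3 or without vehicle replicate 1 (adjusted p of 0.0710 to 0.0769). The largest change in the window of KRT8, a luminal keratin, was a loss 40.8 kb upstream (5.95 ± 0.629 CPM in 10 nM cells and 23.9 ± 8.97 CPM in vehicle cells).

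At GRHL2 and CA12 gains outnumbered losses. GRHL2 had 16 gains and 1 loss among 47 regions, with the largest 2.9 kb past the start (18.3 ± 1.98 CPM in 10 nM cells and 2.69 ± 0.319 CPM in vehicle cells). CA12, a carbonic anhydrase induced by estrogen, had 8 gains and no loss among 22 regions, but 4 gains without vehicle replicate 1 and 5 without vehicle replicate 3; its largest, chr15:63632942-63633585, held 8.60 ± 0.630 CPM in 10 nM cells and 0.812 ± 0.585 CPM in vehicle cells. The largest changes near SPDEF (a prostate and mammary ETS factor, 10.0-fold), MUC1 (a mucin, 12.9-fold), ERBB3 (4.80-fold) and KRT19 (5.94-fold) were gains 20.5 to 46.5 kb from the start. Those windows as a whole did not lean to gains: SPDEF had 2 gains and 1 loss among 14 regions, MUC1 2 gains and 1 loss among 17, ERBB3 2 gains and 3 losses among 17 and KRT19 2 gains and 4 losses among 14, with medians of -0.28, -0.31, -0.31 and -0.43 in that order. TBX3 had no call among 9 regions. Of the 104 losses of the luminal list, 65 were also called lower at 18 h, as were 58.3% of all 6 h losses. Of its 65 gains, 37 were also called higher, as were 60.8% of all 6 h gains.

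Start regions had medians below 0 in every list, which for the progestin list and the other cell types did not hold with an offset fitted to level. All 25 luminal start regions had a log2 fold change below 0 (median -0.57; 20 of 25 with that offset) and 8 were called lower. The 21 cell-cycle starts had a median of -0.37 with 1 called, the 8 housekeeping starts a median of -0.36 with none called and all below 0 (5 of 8 with that offset), the 33 progestin starts a median of -0.18, and the 3 starts of other cell types a median of -0.16 with 1 called lower. The strongest regions took a smaller share of counts in the 10 nM libraries than in the vehicle libraries. With the level-dependent offset the medians were -0.22 for the luminal, -0.05 for the cell-cycle, -0.05 for the housekeeping, 0.09 for the progestin and 0.05 for the other cell type starts, with 9 luminal, 1 cell-cycle, 1 progestin and 1 other cell type start called lower, and 5 progestin, 1 luminal and 1 cell-cycle start called higher. The part of this share of counts in the shift was not tested.

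Promoter bases are shown for the 4 called starts with the smallest p whose span length matched RefSeq and whose promoter is in its table. They show the sequence just before the RefSeq start of FKBP5, whose start region rose, and of AGR2, FOXA1 and ELF5, whose start regions fell. Each is the 250 bases before the start in RefSeq, GRCh38.p14, minus strand, 5′ to 3′: chr6:35728584-35728833 for FKBP5, chr7:16805000-16805249 for AGR2, chr14:37595250-37595499 for FOXA1 and chr11:34511725-34511974 for ELF5. Capitals mark a match to the forkhead core TGTTTAC on either strand.
FKBP5: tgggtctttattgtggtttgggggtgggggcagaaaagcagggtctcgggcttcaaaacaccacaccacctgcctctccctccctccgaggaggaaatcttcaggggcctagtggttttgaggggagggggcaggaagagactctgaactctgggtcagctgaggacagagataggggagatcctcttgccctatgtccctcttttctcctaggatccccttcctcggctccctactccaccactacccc
AGR2: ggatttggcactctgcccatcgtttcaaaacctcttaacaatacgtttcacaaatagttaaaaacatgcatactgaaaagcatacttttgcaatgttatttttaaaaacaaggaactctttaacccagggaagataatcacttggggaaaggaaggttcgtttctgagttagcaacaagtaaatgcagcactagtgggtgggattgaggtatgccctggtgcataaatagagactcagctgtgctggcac
FOXA1: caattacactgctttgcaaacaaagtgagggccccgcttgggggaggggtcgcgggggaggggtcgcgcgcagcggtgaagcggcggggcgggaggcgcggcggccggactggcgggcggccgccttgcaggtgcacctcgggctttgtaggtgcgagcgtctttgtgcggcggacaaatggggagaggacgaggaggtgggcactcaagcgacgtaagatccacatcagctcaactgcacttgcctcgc
ELF5: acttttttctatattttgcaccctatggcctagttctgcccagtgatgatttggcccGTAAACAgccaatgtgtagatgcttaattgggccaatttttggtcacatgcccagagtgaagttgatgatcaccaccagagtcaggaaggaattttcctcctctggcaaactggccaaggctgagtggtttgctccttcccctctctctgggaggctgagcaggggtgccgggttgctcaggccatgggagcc
None of the 4 holds the receptor palindrome (ACA and TGT arms with 3 free bases between them, and an outer G and C) or the shorter TGTTCT on either strand in this window; of 35116 RefSeq promoters of this length 0.327% hold the palindrome, 12.4% the shorter motif and 2.98% the forkhead core. The sequences differ in composition, with 26 CG pairs and 67.2% G or C in FOXA1, against 3 CG pairs and 40.4% in AGR2, 2 and 51.6% in ELF5 and 3 and 57.6% in FKBP5. A match, or its lack, describes these letters alone. The FKBP5 region called higher lies inside the gene, with its middle 1.5 kb past the start. The bases printed before the FKBP5 start therefore fall outside that region. Spans in hg19 and GRCh38 were matched by length, so a RefSeq start may differ from the start used for the call. Whether the bases printed for AGR2, FOXA1 and ELF5 lie in or beside the called regions was not checked.

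In the cell-cycle windows 15.3% of regions were higher and 5.58% lower, at or below the 16.7% and 8.42% of all regions, and 1 of 21 starts was called. The single regions that follow are therefore no sign that cell-cycle loci changed more than others. MYC and CCND1, immediate drivers of the G1 phase, each had 1 gain, among 11 and 16 regions. The MYC gain, chr8:128755368-128755753, lay 7.2 kb past the start and held 6.37, 4.94 and 4.77 CPM in 10 nM cells and 1.37, 1.92 and 1.46 CPM in vehicle cells (3.31-fold, adjusted p = 0.00157). The MYC start held 48.6 ± 1.90 CPM in 10 nM cells and 46.4 ± 9.12 CPM in vehicle cells, with no call (log2 fold change 0.07), but was called higher at 0.37 with the level-dependent offset. The CCND1 start was not called, at 19.99 ± 2.37 CPM in 10 nM cells and 22.96 ± 1.39 CPM in vehicle cells.

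CDKN1A encodes p21, the CDK inhibitor that progestins are known to raise in breast cells. Among 15 regions of its window only chr6:36695351-36695876 was called, 51.4 kb from the start, with 18.4, 18.1 and 16.8 CPM in 10 nM cells and 1.79, 1.58 and 2.51 CPM in vehicle cells (9.18-fold, adjusted p = 6.07e-08). The window had 2 gains with DESeq2, RLE factors, the level-dependent offset, no filter or without vehicle replicate 3, and 3 with the replicate block or the 6 compared libraries alone. No region lay within 1 kb of the CDKN1A start used. MKI67, the gene of the proliferation antigen Ki-67, had its gain over the 3′ end of the gene: chr10:129894670-129895332 held 15.7, 19.5 and 21.6 CPM in 10 nM cells and 0.420, 1.25 and 1.30 CPM in vehicle cells (17.9-fold, adjusted p = 8.99e-07). It was also higher at 18 h, at 22.8 CPM in 10 nM cells and 1.14 CPM in vehicle cells, and its level with 0.1 nM at 6 h was 1.18 CPM.

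CDK6, a G1 kinase, had 6 gains and 1 loss among 17 regions, all inside the gene more than 100 kb past the start. The window of the replication clamp PCNA had 6 gains and 1 loss among 11 regions, and none of these lay inside the gene. Gains were also the largest change near E2F1 (8.07-fold), CDK1 (5.72-fold), CDKN1B (5.75-fold, at 1.30 ± 0.392 CPM in 10 nM cells and 0.209 ± 0.203 CPM in vehicle cells) and CCNE2 (2.79-fold), and near CCNB1 the 1 call was a loss 41.7 kb from the start (6.36-fold lower). The weakest calls were the CDK2 start (log2 fold change -0.59, adjusted p = 0.0386), which missed the threshold when any 10 nM library was left out or without vehicle replicate 1 or 2 (adjusted p of 0.104 to 0.194), and the distal gains near CDK2 and CDK4, which missed it without vehicle replicate 2. For CDK4 the same held without 10 nM replicate 3 and without vehicle replicate 1. No region was called at CCND2, CCND3, CCNE1, CCNA2, CDKN2A, CDKN2B and CDKN2C.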

How the data were processed

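Omni-ATAC-seq was measured in 18 libraries of T47D cells, 3 in each of 6 groups. The deposited table gives raw read counts in 132604 regions shared by all libraries, with hg19 coordinates; BWA and MACS2 are named, without versions, in the submitters' processing notes. Counts were tested with edgeR 4.0.16 (limma 3.58.1, R 4.3.3) by a quasi-likelihood test over all 6 groups with TMM factors, after filterByExpr left out 300 regions, with 12 residual degrees of freedom. CPM was computed here from the deposited counts and TMM-scaled library sizes. Standard errors are of log2 fold changes, and p-values were adjusted over 132304 regions. DESeq2 1.42.0 was an alternative. On simulated counts (10 nM against vehicle at 6 h, 126074 regions) 40 of 50 regions raised 4-fold and 39 of 50 lowered 4-fold were called. In that simulation 125874 regions were left unchanged, and the changed ones were drawn from regions of at least 1 CPM with vehicle. Tables and figures used Python 3.11.15, pandas 2.3.3 and numpy 2.4.6.

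Members, gene lists and tests were chosen with earlier results of these data known. Named are the start region and the largest called change of each listed locus, the 8 strongest non-overlapping gains and losses of at least 4-fold, and the 5 bins of 1 Mb with the most gains and with the most losses. The 6 compared libraries held 11468476 to 33726875 counts in regions.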

Additional observations from a re-analysis of the deposited data

How the results depend on the processing

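Gains numbered 16345 to 22446 and losses 6477 to 12289 when 1 library was left out. Losses numbered 5847 at an adjusted p under 0.01 and 6728 with a minimum change of 1 on the log2 scale. DESeq2 called 23837 gains and 11217 losses, upper-quartile factors 20553 and 15092, total counts 22862 and 8935 (with the median of all regions shifted by 0.115), and the level-dependent offset 20322 and 12031. With 1 library left out, the share lower was 2.79 to 6.15% in progestin, 13.6 to 23.9% in luminal, 1.86 to 7.44% in cell-cycle and 5.88 to 10.3% in housekeeping windows, and the share higher in housekeeping windows was 8.82 to 17.6%. The cell-cycle share lower was 3.49% within 10 kb, and the housekeeping share lower was 16.2% with upper-quartile factors, an alternative chosen after seeing the data. A called region of the same direction lay within 50 kb of 70.2% of gains and 54.0% of losses, where it did for 59.0% and 36.2% of all regions; a called gain lay within 50 kb of 55.6% of losses, and a called loss within 50 kb of 34.7% of gains. By level in 18 h vehicle cells, 30.9% of the weakest quintile were higher and 0.658% lower, and 4.91% of the strongest were higher. The causes were not tested. Among 84 named regions and 1258 alternative values, 1226 were counted as unchanged, 15 lost the call and 17 gained it. Of the values for regions called in the main fit, 0 reversed. A change of direction at a region not called in the main fit was counted as unchanged.

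The deviations of libraries of the same number had r of -0.137, 0.119 and 0.0129, and those of different numbers had r of -0.165 to 0.152. These few values cannot tell whether the numbers pair the samples, and the main fit used no pairing. With the replicate block 25731 regions were higher and 15323 lower, beside 22119 and 11143 without it. The cell-cycle share lower was then 8.84% and the housekeeping share lower 19.1%.

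In the simulation, with 3 libraries a group, small changes were often missed: 6 of 50 regions raised 2-fold and 5 of 50 lowered 2-fold were called. Nearly all simulated regions were left unchanged, whereas 25.1% were called in the data, and the adjusted p depends on that share. The simulated rates are therefore not the power of the comparison itself. Weak regions are limited further by their counts. Locus windows rest on spans entered by hand.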

Other observations

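The window of PTPRC, the leukocyte gene CD45, which had no region within 1 kb of its start, held 2 gains and 6 losses among 11 regions. The 6 losses form the run chr1:198575128-198641739, with log2 fold changes of -2.48 to -1.30 for 10 nM over vehicle. Other runs of gains lay at chr1:60123663-60185008 (7 regions, median log2 fold change 3.06), chr4:24806533-24886094 (8 regions, median 2.45) and chr5:64333347-64390248 (8 regions, median 2.25), and another run of losses at chr14:68400358-68509797 (6 regions, median -1.06). No gene is assigned to these runs here.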
